A study of Homo sapiens with 14 samples.

Results

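The HOX clusters were examined in 4 lists of chromatin immunoprecipitation (ChIP-seq) peaks from HL60, a human cell line derived from acute myeloid leukaemia. A peak was taken as a member when the authors' column for the nearest transcript gave a gene whose name starts with HOXA, HOXB, HOXC or HOXD, which covers the coding genes and their antisense transcripts. This rule found 72 peaks among the 88872 of the 4 lists. The lists were SKI in CRISPR/Cas9 control HL60 cells (1 list), SKI in unmodified HL60 cells (2 lists, numbered 1 and 2 in the labels) and RUNX1 in unmodified HL60 cells (1 list). All cells were grown in RPMI with serum, and the labels give no treatment. The other 10 samples of the 14, among them cells with SKI deleted, IgG, histone marks and CEBPB, were not analysed here, so antibody signal at HOX genes that is independent of SKI was not measured. The labels do not say whether the control cells were a clone or a pool, or whether the numbered lists came from separate cultures. Each list is 1 library, so no test over samples was possible and all values below describe these libraries. Peak lists measure no expression, and the cell type label was not checked against marker genes.

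HOX genes encode homeodomain transcription factors that assign position along the body axis. In humans they lie in 4 clusters, numbered by paralogue group, with the low numbers at the 3′ end of each cluster and the high numbers at the 5′ end. In blood formation, HOXA and HOXB genes are active in stem and progenitor cells and are switched off as cells mature, and HOXA9, with its partner MEIS1, is a well-known driver of leukaemia. SKI is a corepressor that reaches DNA through partners such as SMAD proteins, and RUNX1 is a DNA-binding factor needed for blood stem cells.

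The start regions of HOXD8, HOXD-AS1 and HOXD13 are shown because SKI peaks lay at these genes in 2 or 3 SKI lists. Positions relative to a start, here and below, are the deposited distances, which were not measured exactly from the summit. At HOXD12 the summit of the first unmodified list (176961665) lay nearer the start than that of control cells (176961559). Its distance was nonetheless longer, -2786 against -2622 bp. Placement in a window is therefore approximate. By these distances, the peaks of the unmodified lists at the start of HOXD8 fell within the span of the window. The control peak at -814 bp from that start fell outside it. So did the peaks at the start of HOXD13 (-292 bp in control cells and -308 bp in the first unmodified list). These lay too near the window's edge for such distances to place them with certainty. The other control peak at HOXD8 (426 bp) was measured from another transcript and was not placed. At the start site of HOXD-AS1 the deposited distances refer to a different transcript in each list. That of the first unmodified list was the one matched to the window, and the distance to it, 12 bp, fell within the window. The summits of the other lists there were not placed. The strongest peaks of the exonic HOXD-AS1 site lay 2461, 2472 and 2456 bp downstream of a start in the control, first and second unmodified lists, outside the window. HOXD-AS1 is an antisense RNA of the HOXD cluster that RefSeq now calls HAGLR. The sequences are from RefSeq on GRCh38.p14, each 300 bases long, from 250 bases before to 50 after the annotated start. They are chr2:176129455-176129754 (plus strand), chr2:176178080-176178379 (minus strand) and chr2:176092471-176092770 (plus strand). Peak positions in the rest of the text are on hg19 and were not converted. The listed starts were matched by their spacing from the start of HOXD8, with a median start used where a transcript had several peaks. That of HOXD-AS1 lay at 48424 bp in RefSeq and at 48416 bp in the deposited distances. That of HOXD13 lay at -36984 and -36978 bp. This closeness overstates the precision, because single peaks gave scattered starts. In the first unmodified list, HOXD13 summits at 176953194 and 176957139 had distances of -4434 and -308 bp to the same start, which cannot both be exact. Capitals mark the SMAD half-site GTCTG or its reverse CAGAC.
HOXD8: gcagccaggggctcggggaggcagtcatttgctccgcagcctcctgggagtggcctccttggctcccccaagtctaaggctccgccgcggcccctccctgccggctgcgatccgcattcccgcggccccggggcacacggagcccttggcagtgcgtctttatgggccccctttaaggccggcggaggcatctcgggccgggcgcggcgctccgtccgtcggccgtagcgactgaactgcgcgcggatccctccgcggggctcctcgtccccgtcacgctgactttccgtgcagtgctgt
HOXD-AS1: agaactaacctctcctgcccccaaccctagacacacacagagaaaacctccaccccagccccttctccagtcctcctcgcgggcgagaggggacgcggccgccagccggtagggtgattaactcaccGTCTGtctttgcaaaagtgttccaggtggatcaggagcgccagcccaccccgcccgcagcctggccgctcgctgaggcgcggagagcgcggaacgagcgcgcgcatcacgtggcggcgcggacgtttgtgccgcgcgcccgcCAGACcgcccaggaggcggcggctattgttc
HOXD13: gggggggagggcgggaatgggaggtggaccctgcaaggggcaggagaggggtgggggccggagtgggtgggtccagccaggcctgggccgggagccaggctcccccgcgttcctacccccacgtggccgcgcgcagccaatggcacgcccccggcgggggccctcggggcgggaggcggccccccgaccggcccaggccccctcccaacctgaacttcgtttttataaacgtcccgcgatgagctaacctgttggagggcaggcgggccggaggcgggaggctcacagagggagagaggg
The HOXD-AS1 window held 2 matches of GTCTG or CAGAC, and the windows of HOXD8 and HOXD13 held none, while 45.3% of all 35116 RefSeq start windows hold at least 1. The RUNX core TGTGGT, or its reverse ACCACA, was in none of the 3 windows and is in 13.1% of all windows. The HOX-PBX site TGATTNAT, or its reverse ATNAATCA, was in none of them and is in 2.82% of all. All motifs were searched on both strands, and none contains another. The 3 windows were rich in G and C, at 71.7%, 67.7% and 74.0% for HOXD8, HOXD-AS1 and HOXD13, against a median of 54.3% over the 37 HOX start windows in RefSeq and 58.7% over all windows. A match is only a description of these letters.

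SKI peaks were named for HOX genes in all 3 SKI lists, and most of them came from the longest list. The list of control cells held 12 HOX peaks among 14019, or 0.0856%. The first list of unmodified cells held 50 among 54841, or 0.0912%, and the second held 9 among 14431, or 0.0624%. The RUNX1 list held 1 HOX peak among 5581, or 0.0179%. In control cells the SKI peaks fell as 2 at HOXA, none at HOXB, 3 at HOXC and 7 at HOXD. In the first unmodified list they fell as 10 at HOXA, 10 at HOXB, 16 at HOXC and 14 at HOXD. In the second unmodified list there was 1 at HOXA, 2 at HOXB, 1 at HOXC and 5 at HOXD. HOXD thus held more HOX peaks than any other cluster in the control list and in the second unmodified list, and HOXC did so in the first. The RUNX1 peak was at HOXD10.

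**Figure D1:**
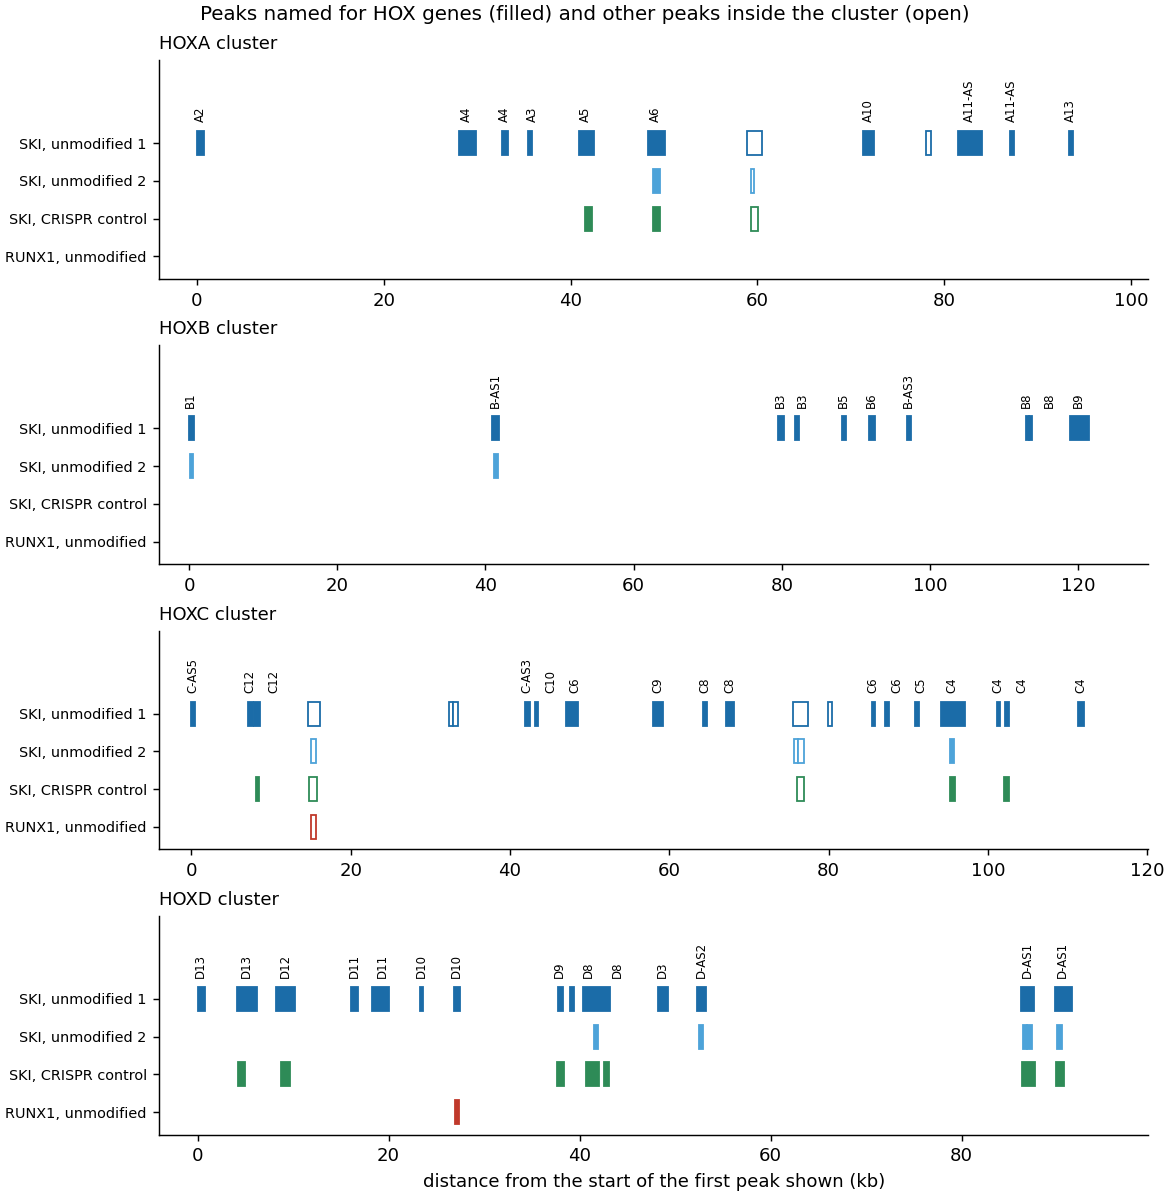
Peaks along the 4 clusters, with distance in kb from the start of the first peak shown on the horizontal axis and 1 row per list. Filled boxes are peaks named for a HOX gene, open boxes are other peaks that lie inside the cluster, and the gene labels above belong to the first unmodified list, without the letters HOX and moved right where peaks are close; the paired peaks at HOXC12 and HOXB8 merge at this scale. The long list covers all clusters, the control row is empty at HOXB, and the filled RUNX1 box is the peak at HOXD10.

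Joining SKI peaks that overlapped by at least 1 bp gave 50 HOX sites, of which 5 recurred in all 3 SKI lists. That is 10.0% (95% Wilson interval 4.35 to 21.4), while 16.3% of all 55146 SKI sites recurred in all 3. A further 9 sites were in 2 lists and 36 were in the first unmodified list alone. HOXD held 3 of the 5 recurring sites, HOXA and HOXC held 1 each, and HOXB held none. Of the 9 sites in 2 lists, 6 were shared by the first unmodified list and the control cells, 3 by the unmodified lists, and none by the second unmodified list and the control cells. The first unmodified list had a peak at every one of the 50 sites. By position on a cluster, the recurring sites were at HOXA6, HOXC4, HOXD8 and HOXD-AS1 (2 sites).

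The strongest HOX site was in an exon of HOXD-AS1 (chr2:177038936-177040406). Fold enrichment over background, the authors' value for each peak, was 90.44 in control cells, with 355 tags. It was 99.71 in the first unmodified list, with 811 tags. In the second unmodified list 2 neighbouring peaks, with fold enrichments of 68.97 and 17.10 and with 199 and 75 tags, lay in the site. Ranked within its own list, the strongest peak of the site was in the top 0.692% in control cells, the top 2.08% in the first unmodified list and the top 0.804% in the second. It was the HOX peak of highest fold enrichment in every SKI list. By the deposited distances, the strongest peaks lay 2461, 2472 and 2456 bp downstream of the nearest annotated start in the control, first and second unmodified lists. A weaker recurring site covered a start of HOXD-AS1 itself (chr2:177042444-177044187). Its distances were 37, 12 and -49 bp from the start of the nearest transcript, a different one in each list. Its fold enrichments were 12.31, 24.06 and 7.65 in that order of lists. It held 63, 351 and 58 tags. These ranked in the top 46.6%, 37.6% and 71.1% of their lists, so the 2 sites of HOXD-AS1 differed widely in rank.

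HOXD8, a gene of the middle of the cluster, had a recurring site across its start (chr2:176993013-176995852). Control cells had 2 peaks there, with fold enrichments of 12.92 and 12.82 and with 120 and 40 tags. The first unmodified list had 1 peak 2840 bp wide that spanned both, with a fold enrichment of 59.42 and 674 tags. The second unmodified list had 1 peak of 328 bp, with a fold enrichment of 7.21 and 39 tags. The peak ranked in the top 9.61% of the first unmodified list and in the top 75.1% of the second, and the stronger control peak in the top 43.3%. Deposited distances were -814 and 426 bp in control cells, -29 bp in the first unmodified list and 7 bp in the second. The distance of 426 bp is from another HOXD8 transcript than the other values.

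HOXA6 had the recurring site of the HOXA cluster (chr7:27189584-27191354). Its fold enrichment was 10.52 in control cells with 63 tags, 45.43 in the first unmodified list with 387 tags and 11.47 in the second with 72 tags. The peaks lay upstream of the start, at distances of -362, -370 and -368 bp in that order. These ranked in the top 57.5%, 15.8% and 42.8% of their lists. HOXC4, the most 3′ gene of its cluster, had the recurring HOXC site (chr12:54429483-54432519). Its fold enrichment was 6.73 in control cells with 34 tags, 32.08 in the first unmodified list with 585 tags and 9.16 in the second with 67 tags. The HOXC4 peak of the first unmodified list was the widest HOX peak of any list, at 3037 bp, whereas the peaks of the control cells and the second unmodified list were 565 and 486 bp wide. The site ranked in the top 86.3% of the control list, 26.2% of the first unmodified list and 58.4% of the second, so the control peak was among the weak ones of its list. Its distances were -763, -729 and -754 bp in that order, from the start of 1 HOXC4 transcript. A peak near the start of another HOXC4 transcript (chr12:54446681-54447490) was in the first unmodified list alone.

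HOXD held 4 of the 9 sites in 2 lists. HOXD13, which patterns the digits, had a peak at its start in control cells (fold enrichment 10.34, 65 tags, distance -292 bp) and in the first unmodified list (51.33, 584 tags, -308 bp). HOXD12 had a peak upstream in the same lists (7.90 with 64 tags in control cells; 37.44 with 412 tags in the first unmodified list). HOXD9 had an intronic peak in these lists, with fold enrichments of 10.40 and 26.68. The second unmodified list had no peak at any of these 3 genes. HOXA5 had a peak at its start with fold enrichments of 8.64 in control cells and 19.77 in the first unmodified list. HOXC12 (18.93 and 21.05) and an intron of HOXC4 (6.09 and 34.28) completed this class. The sites shared by the unmodified lists and absent from the control list were at HOXB1, HOXB-AS1 and HOXD-AS2. The HOXB1 peak, with fold enrichments of 37.24 in the first and 13.37 in the second unmodified list, was intergenic and 24883 and 24875 bp downstream of its start, so the name is only that of the nearest transcript. HOXB-AS1, with 39.20 and 10.70, was the only site between the outermost HOXB starts found in more than 1 list. HOXD-AS2, with 45.43 and 9.19, lay in an intron.

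Read from the 3′ to the 5′ end, the HOXA peaks of the first unmodified list were nearest to HOXA2, HOXA4 (2 peaks), HOXA3, HOXA5, HOXA6, HOXA10, HOXA11-AS (2 peaks) and HOXA13. The HOXA3 peak lay on the 5′ side of those of HOXA4, in an intron, and is named for the nearest listed transcript. The strongest of these was at the start of HOXA4, with a fold enrichment of 49.97, 256 tags and a distance of -89 bp, and it was in no other list. In control cells and in the second unmodified list the strongest HOXA peak was that of HOXA6. At HOXA10, a regulator of myeloid progenitors, the long list had 1 peak of 1172 bp with a fold enrichment of 14.90 and 167 tags. HOXA7, HOXA9 and HOXA11 were nearest to no peak of any list. HOXA11-AS is transcribed from the strand opposite HOXA11. The peak at its start (36.29, 413 tags, distance -58 bp, 2568 bp wide) carries its name alone, since the lists give 1 transcript per peak.

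SKI peaks of the first unmodified list covered 6.79% of HOXB between its outermost starts, and 14%, 15.9% and 16.8% of HOXA, HOXC and HOXD. In the first unmodified list they were at HOXB1, HOXB-AS1, HOXB3 (2 peaks), HOXB5, HOXB6, HOXB-AS3, HOXB8 (2 peaks) and HOXB9. Between the HOXB-AS1 and HOXB3 peaks lay 37.7 kb with no peak, the longest gap of that list between the outermost HOX starts of any cluster. The HOXB1 peak, the HOXA2 peak and the upstream HOXD13 peak lie outside those bounds, and the stretches next to them were not counted. The highest fold enrichments were 39.20 at HOXB-AS1, 37.24 at HOXB1 and 37.11 in the HOXB8 pair, whose 2 peaks lay next to each other. HOXB9 had the widest HOXB peak, 2511 bp with 459 tags and a fold enrichment of 15.20. HOXB2, HOXB4, HOXB7 and HOXB13 had none, and HOXB4 is a factor that expands blood stem cells when forced on.

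In HOXC the long list had peaks from HOXC-AS5, the antisense transcript of HOXC13, down to HOXC4. Peaks were at HOXC12 (2), HOXC-AS3, HOXC10, HOXC6, HOXC9, HOXC8 (2), HOXC6 (2), HOXC5 and HOXC4 (4), in this order. The HOXC peak of highest fold enrichment was the intronic HOXC4 peak in the first unmodified list (34.28, 260 tags), the HOXC12 peak in control cells (18.93, 38 tags) and the HOXC4 peak in the second unmodified list (9.16). HOXC11 and HOXC13 had none. In HOXD the long list had peaks at HOXD13 (2), HOXD12, HOXD11 (2), HOXD10 (2), HOXD9, HOXD8 (2), HOXD3, HOXD-AS2 and HOXD-AS1 (2). HOXD1 and HOXD4 had none. A gap of 33.0 kb without a peak lay between HOXD-AS2 and the strong site of HOXD-AS1. Between neighbouring peaks that lay inside the bounds, the longest gaps of HOXA and HOXC were 10.8 and 16.2 kb. The stretch between the HOXA2 and HOXA4 peaks is longer than 10.8 kb but was not counted, since the HOXA2 peak lies outside the bounds.

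**Figure D2:**
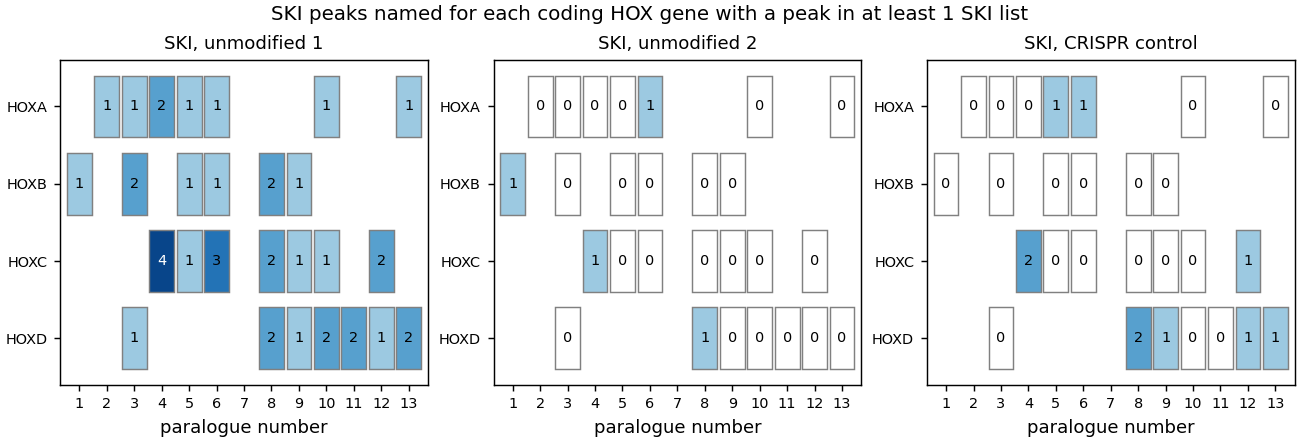
Number of SKI peaks named for each of the 27 coding HOX genes with a SKI peak in at least 1 list, with paralogue number on the horizontal axis and cluster on the vertical axis, for the first and second unmodified lists and the control list. Genes without a SKI peak have no box. The first panel names 27 genes, the second 4 and the third 8.

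By gene, 27 of the 39 coding HOX genes (69.2%) were named by at least 1 SKI peak, and all 27 were named in the first unmodified list. Over all 20056 protein-coding genes the share was 66.5% for any SKI list and 65.4% for that list. The control list named 8 of 39 (20.5%), where it named 29.8% of all protein-coding genes. The second unmodified list named 4 of 39 (10.3%), where it named 30.8% of all. A site shared by all 3 lists was named for HOXA6, HOXC4 and HOXD8, or 3 of 39 (7.69%, 95% Wilson interval 2.65 to 20.3), and for 24.1% of all protein-coding genes. Genes in a cluster are neighbours and not independent, and the intervals cover counting error alone. All 3 genes at shared sites belong to paralogue groups 4 to 8, which have 15 members. The 8 genes of groups 1 to 3 and the 16 of groups 9 to 13 had none. This split rests on the short lists. Without the second unmodified list, sites of the other 2 SKI lists named 8 coding genes, 4 in groups 4 to 8 and 4 in groups 9 to 13 (HOXC12, HOXD9, HOXD12 and HOXD13). Without the control list, HOXB1 of groups 1 to 3 joined the 3. In those blocks 5 of 8 and 11 of 16 had a SKI peak in at least 1 list, and 11 of 15 in groups 4 to 8. Of 15 HOX antisense and other noncoding names, 7 were used in the lists (HOXA11-AS, HOXB-AS1, HOXB-AS3, HOXC-AS3, HOXC-AS5, HOXD-AS1 and HOXD-AS2). The 8 RefSeq names that no peak carried were HOXA-AS2, HOXA-AS3, HOXA10-AS, HOXB-AS2, HOXB-AS4, HOXBLINC, HOXC-AS1 and HOXC-AS2. Peaks listed under clone names were not matched to these names, so a peak at such a transcript under another name would be missed.

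HOX peaks had medians close to those of their lists. Median fold enrichment was 10.46 for HOX peaks and 11.63 for the whole list in control cells, 20.8 and 18.8 in the first unmodified list, and 10.70 and 10.35 in the second. Median tags were 54.5 and 61 in control cells, 96 and 97 in the first unmodified list, and 58 and 56 in the second, again with HOX first. Median widths were 742.5 and 691 bp, 728 and 710 bp, and 442 and 472 bp in the same order. Of HOX peaks, 1 of 12 in control cells, 2 of 50 in the first unmodified list and 1 of 9 in the second were in the strongest 10.0% of the list. The 2 in the first unmodified list were the exonic HOXD-AS1 peak and the HOXD8 peak. Peaks wider than 2000 bp made up 6 of the 50 HOX peaks there (12%, 95% Wilson interval 5.62 to 23.8) and 7.34% of the list. They were at HOXC4, HOXD8, HOXA11-AS, HOXB9, HOXD12 and HOXD13. No HOX peak was that wide among the 12 of control cells, where 1.42% of the list was, or among the 9 of the second unmodified list, where 0.139% was. A −log10 p of at least 10 was reached by 12 of 12 HOX peaks in control cells (94.0% of the list), by 49 of 50 in the first unmodified list (91.2%) and by 7 of 9 in the second (78.0%). In the authors' classes, the class of a transcription start held 7 of 12 HOX peaks in control cells (58.3%, against 48.0% of the list), 30 of 50 in the first unmodified list (60.0%, against 35.2%) and 5 of 9 in the second (55.6%, against 52.4%).

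**Figure D3:**
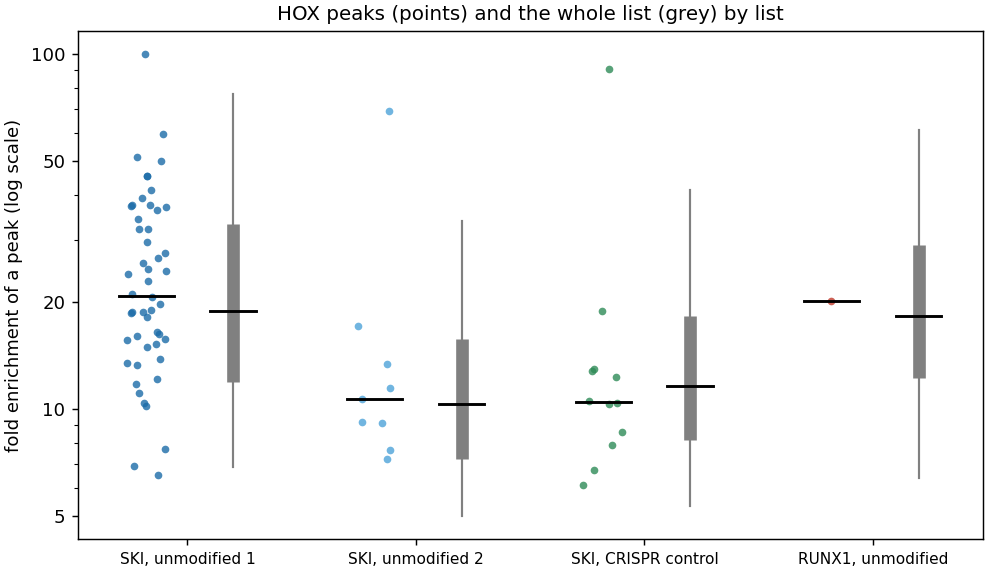
Fold enrichment of each HOX peak (coloured points, left) beside the whole list (grey, right) for the 4 lists, on a log axis. Black bars are medians, thick grey bars run from the 25th to the 75th percentile and thin lines from the 5th to the 95th. HOX medians sit close to list medians, and the exonic HOXD-AS1 peak, at 90.44 in control cells, 99.71 in the first unmodified list and 68.97 in the second, stands above the rest.

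Among clusters in the first unmodified list, HOXD had the highest medians. Its median fold enrichment was 30.8, with 177.5 tags and a width of 990.5 bp over 14 peaks. For HOXA the values were 20.2, 125.5 tags and 988 bp over 10 peaks. HOXC had 16.95, 77.5 tags and 587.5 bp over 16, and HOXB had 16.25, 85 tags and 581 bp over 10. The ranges overlapped, from 13.50 to 99.71 in fold enrichment at HOXD and from 6.51 to 34.28 at HOXC. The 14 HOX peaks of that list that recurred in another SKI list had a median fold enrichment of 37.34, 305.5 tags and a width of 1473.5 bp. The 36 that did not had 17.3, 82 tags and 568 bp. The same split over the whole list gave 40.80, 332 tags and 1295 bp for recurring peaks, and 14.90, 66 tags and 600 bp for the others. Of the 50 HOX peaks of that list, 11 overlapped a control peak (22.0%, against 23.2% of the list) and 8 a peak of the second unmodified list (16%, against 22.6%). All 12 HOX peaks of control cells and all 9 of the second unmodified list overlapped a peak of the first, as did 97.5% and 97.4% of those lists. Of the 12 in control cells, 5 overlapped the second unmodified list (41.7%, 95% Wilson interval 19.3 to 68.0, against 69.3% of the list). In the reverse direction it was 6 of 9 (66.7%, against 72.3%).

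**Figure D4:**
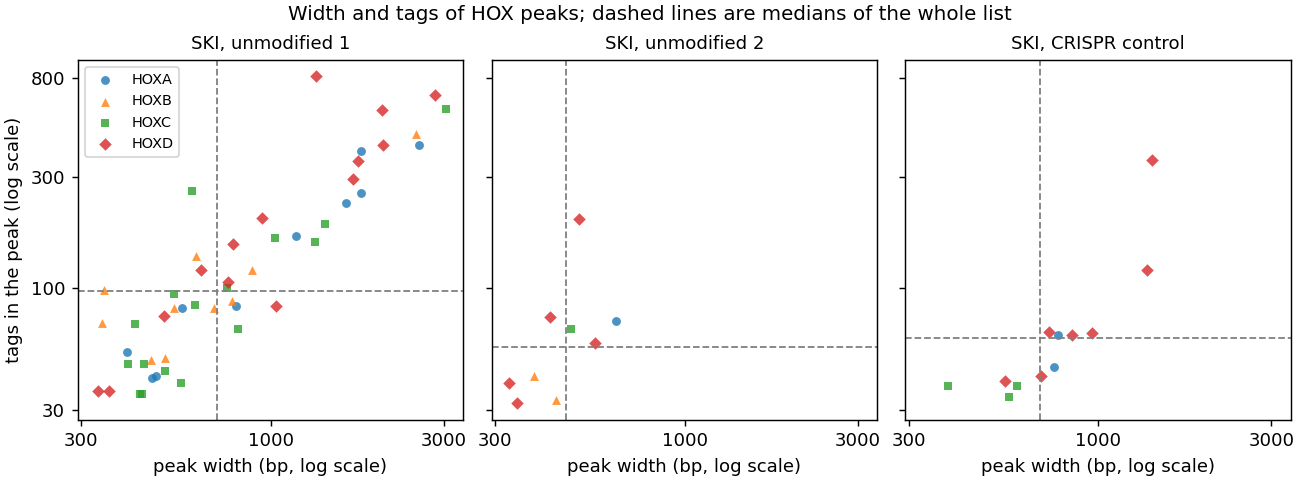
Peak width in bp and tags per peak of HOX peaks in the 3 SKI lists, on log axes, with 1 symbol per cluster. Dashed lines are the medians of the whole list. In the first unmodified list widths run from 334 to 3037 bp and tags from 35 to 811, and the highest point is the HOXD-AS1 peak with 811 tags.

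The RUNX1 list named a HOX gene once. Its peak lay upstream of HOXD10 (chr2:176979657-176980079), a gene of the 5′ part of the cluster, at a distance of -1440 bp from the start. It had a fold enrichment of 20.14, 60 tags and a −log10 p of 91.41, in the top 44.6% of the RUNX1 list. It lay wholly inside a SKI peak of the first unmodified list (chr2:176979543-176980184) that had a fold enrichment of 41.25 and 120 tags, and the summits were 2 bp apart. Neither the control list nor the second unmodified list had a SKI peak there. Thus 1 of the 50 HOX peaks of the first unmodified list overlapped RUNX1 (2%, 95% Wilson interval 0.354 to 10.5), where 9.21% of that list did. Counted over sites it was 1 of 50 HOX sites and 9.36% of all SKI sites. None of the 12 control peaks did, where 27.8% of the list did, and none of the 9 of the second unmodified list, where 23.9% did. A count of 0 allows shares of up to 25% and 33.3% in these small sets. At the 5 recurring HOX sites the count was 0 of 5 (95% Wilson interval 0 to 43.4%), which by a limit of 3 counts allows a share of up to 60.0%, so the 33.5% found over all 8980 shared SKI sites was not distinguishable at this number of sites. The single RUNX1 peak put 1 of 39 coding HOX genes (2.56%) beside the 11.3% of all protein-coding genes that the RUNX1 list named. From the recurring sites to the nearest RUNX1 peak it was 12.9 kb at HOXD8, 58.9 and 62.4 kb at HOXD-AS1, 78.4 kb at HOXC4 and 750 kb at HOXA6. No RUNX1 peak lay within the HOXA cluster or for 1840 kb around it, between a peak nearest AC004540.5 and another nearest JAZF1-AS1.

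Several peaks inside or beside the clusters were named for other transcripts. Between the outermost HOX starts with a peak, a stretch that the peaks themselves define, the first unmodified list had 7 peaks with other names, at RP1-170O19.21, RP1-170O19.20, AC012531.23, HOTAIR (2), RP11-834C11.14 and AC012531.25. AC012531.23, RP11-834C11.14 and RP1-170O19.21 held peaks of all 3 SKI lists. The peaks at RP1-170O19.21, between the HOXA6 and HOXA10 peaks, had fold enrichments of 18.55 in control cells, 72.09 in the first unmodified list and 22.20 in the second. The site at AC012531.23, between HOXC12 and HOTAIR, carried a RUNX1 peak with a fold enrichment of 21.56 and 62 tags. SKI fold enrichments there were 12.46 in control cells, 38.96 in the first unmodified list and 10.52 in the second, and the RUNX1 summit was 55, 304 and 32 bp from the SKI summits. With membership by position, 8 sites recurred in all 3 SKI lists and 1 of the 8 (12.5%) carried RUNX1. In all, the 4 stretches spanned 388 kb, of which SKI peaks covered 2.86% in control cells, 13.4% in the first unmodified list and 1.44% in the second. Over the lengths of the chromosomes as the lists reach them, the shares were 0.364%, 1.70% and 0.255%. These are not like for like, since the stretches were bounded by HOX starts with a peak and whole chromosomes were not. By gene, 69.2% of coding HOX genes and 66.5% of all protein-coding genes were named in any SKI list. At shared sites it was 7.69% and 24.1%.

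HOTAIRM1, a myeloid antisense transcript of the HOXA cluster, had a site in all 3 SKI lists. Its best fold enrichments were 14.84 in control cells, 40.95 in the first unmodified list and 9.16 in the second. SMUG1, beside HOXC, had 16.68, 62.11 and 22.37, and MTX2, beside HOXD, had 18.73, 51.51 and 7.65, in the same order. The next genes are outside the rule for named genes and were chosen after their values were seen. HOTTIP, at the other end of HOXA, had peaks in control cells (8.11) and in the first unmodified list (37.33). EVX1 and EVX2, homeobox genes that flank HOXA and HOXD, had a peak in the first unmodified list alone, with 31.25 and 30.22. The microRNA genes MIR10A, MIR10B, MIR196A1, MIR196A2, MIR196B and MIR615, which lie in the clusters, were nearest to no peak. Of the 19 embedded and neighbouring genes examined, HOXD-AS1 included under its new name, 12 had a SKI peak in at least 1 list, 6 a shared site and 1 a RUNX1 peak (SKAP1, beside HOXB, fold enrichment 9.52).

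Genes that act with or on HOX genes were counted in the same way. Of 9 genes of the PBX, MEIS and PKNOX families, whose proteins bind DNA together with HOX proteins, 7 had a SKI peak in at least 1 list, 2 had a shared site and none had a RUNX1 peak. The shared sites were at PBX3 and MEIS2. Fold enrichments here are the best over all peaks named for a gene in a list, which need not lie at its shared site. They were 9.11 in control cells, 35.15 in the first unmodified list and 11.62 in the second for PBX3. For MEIS2 they were 14.65, 25.56 and 5.16. MEIS1 and PBX4 had no peak in any list. A list of 15 genes held members and cofactors of the KMT2A complex and the DOT1L partners, which keep HOX genes on, and NPM1, a nucleolar chaperone mutated in leukaemias with high HOX expression. All 15 had a SKI peak in at least 1 list, and 4 had a shared site. The 4 were AFF4 (best fold enrichments 12.07, 38.71 and 19.86 in the same order of lists), MLLT3 (13.95, 24.83 and 8.65), KMT2A itself (17.54, 47.98 and 8.02) and AFF1 (8.27, 44.48 and 17.86). PSIP1, which tethers that complex to chromatin, had the RUNX1 peak of this group, with a fold enrichment of 27.78. All 16 Polycomb genes, which keep HOX genes off, had a SKI peak in at least 1 list, 9 had a shared site and 1 a RUNX1 peak. The members ranked highest in all 3 SKI lists were PHC2, CBX2, JARID2 and EED. PHC2 had the RUNX1 peaks of this group, and its best fold enrichments in the SKI lists were 27.65, 97.97 and 15.95. Of its 3 shared sites, 2 overlapped RUNX1. Of the 6 CDX and ParaHox genes, 3 had a SKI peak, none in all 3 lists, and none had a RUNX1 peak. Set beside these, 66.5% of all protein-coding genes had a SKI peak in any list, 24.1% a shared site and 11.3% a RUNX1 peak.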

How the data were processed

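The 4 deposited peak lists were grouped by sample title. Tools named in the submitters' processing notes, with no roles, are Bowtie2, bcl2fastq, deepTools and MACS 1.4, and the builds are GRCh37 and hg19. Neither library depth nor the control for each ChIP is given in the sources used here. Per the file headers, the authors deposited for each peak its −log10 p-value, its count of tags and a ratio, the fold enrichment, with the nearest transcript, the signed distance to its start, a position class and the summit. The FDR column was not used.

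HOX peaks were taken by gene name. SKI peaks with an overlap of 1 bp or more formed 1 site, called shared when all SKI lists contributed. Clusters were also bounded by position, from the outermost HOX starts rebuilt from the summits and the deposited distances. These starts are approximate, because the distances were not measured exactly from the summits. Shares carry 95% Wilson intervals, and limits for a count of 0 use 3 counts. Both cover counting error only. Percentages over genes use 20056 protein-coding RefSeq symbols of another build, matched by symbol or an unambiguous synonym. By rule, all HOX names were accounted for (1 is counted but not reported here), shared sites and RUNX1 peaks were given in full, the peak of highest fold enrichment was named per cluster and list, and up to 4 members of a list of related genes were named by their worst rank over the SKI lists. Members and lists were chosen with earlier results of these data known. The joining of peaks was tested on simulated lists. No test over samples was made. Alternatives were membership by position, a −log10 p minimum of 10, equal-length lists (5581 peaks each), at least 35 tags, other overlap rules and leaving out each SKI list. Computations used pandas 2.3.3, scipy 1.17.1 and numpy 2.4.6 under Python 3.11.15, with figures from matplotlib 3.10.9.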

Additional observations from a re-analysis of the deposited data

How the results depend on the processing

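All alternatives were planned. Of 47 recomputed values, 12 moved. The other 35 were counts within 1.5 times the count given, or shares with RUNX1 within the 95% Wilson interval of 0 of 5 (0 to 43.4%), which is wide. When every list was reduced to the length of the RUNX1 list, HOX peaks numbered 2 in control cells, 3 in the first unmodified list and 2 in the second, HOX SKI sites 3, shared HOX sites 1 and coding genes at a shared site 0. With membership by position, RUNX1 had 2 HOX peaks and the shared HOX sites numbered 8. Leaving out 1 SKI list gave 15 to 50 HOX sites (15 without the first unmodified list), 5 to 11 shared sites (11 without the second unmodified list, 8 without the control list and 5 without the first unmodified list), 0% to 0% of shared sites with RUNX1, and 3 to 8 coding genes at a shared site (8 without the second unmodified list). The share of shared HOX sites with RUNX1 was 0% under every alternative except membership by position, where it was 12.5%. No paired analysis was possible because no pair of groups has more than 1 replicate number in common. Library depth is unknown, so a missing peak in the shorter lists cannot be told apart from a peak below their threshold.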
